A study of Mus musculus with 3 samples.

Results

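Interferons are secreted cytokines that make cells switch on a shared set of antiviral genes. Type I interferons act through the receptor subunits IFNAR1 and IFNAR2 and the kinases JAK1 and TYK2 to form a complex that contains STAT2 and IRF9 and binds the interferon-stimulated response element (ISRE), whereas interferon gamma acts mainly on the gamma-activated site (GAS). In adipose tissue such genes are known to be inducible in endothelial cells, adipocytes and immune cells alike. Described here are 46 interferon-stimulated genes in nuclei of mouse interscapular brown adipose tissue (BAT), taken from a list of gene names from known families, out of 25154 genes in the tables. They fell into 10 role groups: the IFIT family, the OAS family, the ISG15 system, other antiviral effectors, guanylate-binding proteins (GBPs), immunity-related GTPases, very large inducible GTPases, the PARP and DTX3L genes, transcription regulators and nucleic acid sensors. Of the 46, 41 had a column in at least 1 library and 40 in every library, and sums over members use those 40. Gbp4, Gbp6, Gbp9, Mx2 and Igtp were not analysed here, and Tgtp1 had no column in the untreated library. Earlier results of these data were known when the members and the comparisons were chosen.

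Single-nucleus RNA-seq (snRNA-seq) of BAT compared the sympathetically innervated with the denervated tissue. All 3 libraries were labelled as from adult wild-type C57Bl6 mice, and each condition was 1 library: a non-treatment library, a sham operation library and a denervation library. Groups and genotype rest on the labels alone: the header of the denervated table carries a run name that begins with nKO, that of the untreated table one that begins with nC, and what these letters stand for is not given in the sources used here. Denervation was unilateral: the intercostal nerve branches to the left lobe were cut, the right lobe was kept intact, and the tissue was taken after 3 days from male C57BL/6J mice of 8 weeks. The untreated and the denervated library each pooled 20 mice, the study's description of the denervated sample also names tamoxifen, and how the sham library was made is not given in the sources used here. Nuclei were taken from the floating layer, with 20000 loaded per run. With 1 library per condition no difference was tested between conditions. Intervals are 95% exact Poisson, binomial or Clopper-Pearson intervals and cover counting error only, not differences between nuclei, mice, preparations or runs. Those of levels and ratios take each UMI as independent, which UMIs of the same nucleus need not be. They are too narrow where few nuclei hold many of the member UMIs. Denervation, pooling and library preparation cannot be told apart in any difference between libraries.

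The libraries held 14971579 (untreated), 14725864 (sham) and 9420030 (denervated) unique molecular identifiers (UMIs, counted RNA molecules). After filtering, 10793, 12046 and 9694 nuclei were kept, with medians of 975, 742 and 687 UMIs. Any pair of libraries shared 251 to 278 barcodes, and leaving those nuclei out changed no sum or ratio of the members by more than its counting interval. Nucleus types were rebuilt by clustering on genes other than the members and the other interferon-related lists. They were named from fixed markers, so no type was built directly on the genes described here. Other genes that may vary with them were not left out, among them Cxcl9, a leading gene of a sham endothelial-like cluster. Endothelial-like nuclei numbered 5321, 5826 and 2268 (untreated, sham, denervated), brown adipocyte-like nuclei 4592, 3197 and 4974, and white adipocyte-like nuclei, marked by Slc7a10, 140, 1116 and 981. Mural-like nuclei (pericyte or smooth muscle) numbered 537, 1549 and 766, and immune-like nuclei 67, 84 and 253. Schwann-like and fibroblast- or progenitor-like nuclei were found in the sham and the denervated library, and a group with both adipocyte and endothelial markers was left unnamed.

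Short stretches around the start sites are printed to show where the letters of the ISRE and GAS cores occur in members. RefSeq windows of build GRCm38.p6, from 250 bases before to 50 after a start, existed for 30 members. The ISRE core searched was GAAA, any 2 bases and GAAA, and the GAS core TTC, any 3 bases and GAA, each on both strands. An ISRE core was present in 19 of the 30 members (63.3%) and in 3.99% of all 27025 genes with a window, and a GAS core in 8 of 30 (26.7%) against 9.55% of genes. Both cores were found in 6 members, an ISRE core alone in 13, a GAS core alone in 2 and neither in 9. A match describes letters in this window and is not evidence of binding. The stretches below are examples picked among members with high UMI numbers or from the IFIT, ISG15, GBP and immunity-related GTPase families. All of them hold an ISRE core, and members without one, such as Irf9, Herc6 and Ifi35, are not printed. Capitals mark the cores, and each stretch is given 5′ to 3′ on the gene's own strand, 10 bases beyond the outermost core.
Rsad2, chr12:26456553-26456582, minus strand: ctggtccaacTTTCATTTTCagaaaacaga
Isg15, chr4:156200865-156200906, minus strand: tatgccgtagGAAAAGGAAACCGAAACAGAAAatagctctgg
Ifit1, chr19:34640775-34640823, plus strand: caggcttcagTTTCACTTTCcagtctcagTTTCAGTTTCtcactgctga
Ifit3, chr19:34583363-34583426, plus strand: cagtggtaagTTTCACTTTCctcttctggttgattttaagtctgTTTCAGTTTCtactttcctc
Ifit3b, chr19:34607759-34607822, plus strand: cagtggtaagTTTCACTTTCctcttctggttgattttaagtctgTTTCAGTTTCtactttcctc
Gbp2, chr3:142620594-142620623, plus strand: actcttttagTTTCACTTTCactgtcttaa
Gbp7, chr3:142530220-142530302, plus strand: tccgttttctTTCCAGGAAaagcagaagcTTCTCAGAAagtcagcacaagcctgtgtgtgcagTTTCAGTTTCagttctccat
Tgtp2, chr11:49064263-49064303, minus strand: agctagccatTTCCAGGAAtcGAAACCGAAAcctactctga
Trim30a, chr7:104465210-104465239, minus strand: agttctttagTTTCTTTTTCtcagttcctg
Stat2, chr10:128270266-128270295, plus strand: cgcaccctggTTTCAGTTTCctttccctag
Isg15 held 3 overlapping ISRE cores, and Ifit1, Ifit3 and Ifit3b 2 each. Gbp7 and Tgtp2 carried both kinds of core, as did Gbp5, with 1 ISRE and 2 GAS cores. The stretches of Ifit3 and Ifit3b were the same letter for letter. These 2 genes also shared 61.8% and 54.1% of their 31-base words, 89.2% of the words of Tgtp2 were in Tgtp1, and 99.0% of those of Gvin1 were in Gm4070, so the split of UMIs within each of these pairs is uncertain. Dtx3l and Parp9 overlap on opposite strands.

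Of the nucleus types, endothelial-like nuclei had the highest summed level of the members in the untreated and the denervated library, and in sham their interval overlapped that of immune-like nuclei. Summed over the 40 members, endothelial-like nuclei held 3425 CPM (member UMIs as counts-per-million of all UMIs in the type, with an interval of 3365 to 3485) in the untreated, 3907 (3843 to 3972) in the sham and 3245 (3135 to 3359) in the denervated library. Brown adipocyte-like nuclei held 452 (437 to 466), 493 (473 to 514) and 651 (629 to 674) CPM. White adipocyte-like nuclei held 966 (834 to 1113), 908 (859 to 959) and 2194 (2096 to 2296) CPM. The endothelial-like level was thus the higher in each library, and the denervated white adipocyte-like level lay outside the intervals of both other libraries. Immune-like nuclei held 1694 (1383 to 2055), 3730 (3305 to 4194) and 2392 (2150 to 2653) CPM, from 67, 84 and 253 nuclei. In sham, 16 of the 84 immune-like nuclei had UMIs of 5 or more members and held 52.7% of the type's member UMIs. Without these 16 the sham immune-like level was 2498 CPM (2090 to 2963). Under the same cut the sham endothelial-like level was 3127 CPM (3065 to 3190). The cut uses the members' own counts and so lowers both levels, and nothing is read from it. Mural-like nuclei held 750, 1014 and 968 CPM. Schwann-like nuclei held 2146 CPM in sham and 932 in denervated tissue, on 177 and 28 member UMIs, and fibroblast- or progenitor-like nuclei 1630 and 1391. Endothelial-like nuclei supplied 73.3%, 72.3% and 34.0% of all member UMIs with 28.4%, 32.8% and 12.8% of all UMIs. White adipocyte-like nuclei supplied 1.10%, 6.50% and 19.5% of member UMIs with 1.52%, 12.7% and 10.9% of all UMIs.

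**Figure D1:**
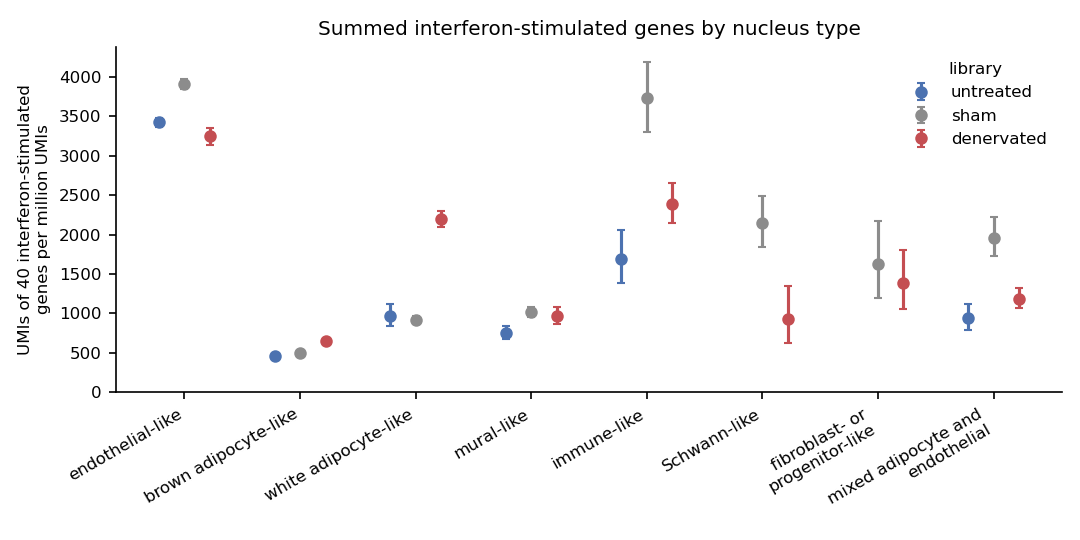
Summed level of the 40 members (CPM) in each nucleus type and library, with 95% Poisson intervals as bars. Endothelial-like nuclei lie at 3245 to 3907 in every library, brown adipocyte-like nuclei at 452 to 651, and white adipocyte-like nuclei at 2194 in the denervated library against 966 and 908.

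Against brown adipocyte-like nuclei of the same library, endothelial-like nuclei held the members at 7.58-fold the level in untreated (7.31 to 7.86), 7.93-fold in sham (7.58 to 8.29) and 4.98-fold in denervated tissue (4.75 to 5.23). With 20 or more UMIs in both types together, 36, 37 and 37 members could be compared, and 35, 37 and 32 of them were at least 2-fold higher in endothelial-like nuclei. Over all genes compared the same way, 18.9% (untreated), 21.4% (sham) and 18.6% (denervated) were at least 2-fold higher. Since the members and this comparison were chosen with earlier results of these data known, the counts are a description. The members' median log2 ratio was 3.11, 3.49 and 2.32, beside -0.29, -0.11 and -0.21 over all genes. At least 2-fold lower were 0, 0 and 1 member, with 27.9%, 25.2% and 25.4% of all genes. The 1 member was Zbp1, a sensor of Z-form nucleic acids named after its values were seen, with 2 UMIs in endothelial-like and 22 in brown adipocyte-like nuclei of the denervated library. For scale, 12 endothelial marker genes were 41.8-, 31.9- and 42.0-fold higher in endothelial-like nuclei. These markers also served to name the types and to remove doublets. Their ratio is therefore partly built in, and nothing is concluded from setting the members beside it.

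Among the antiviral effectors, Rsad2 (viperin, which makes an antiviral nucleotide) had 2127, 2397 and 485 UMIs in endothelial-like nuclei of the untreated, sham and denervated library, or 574, 657 and 485 CPM. In brown adipocyte-like nuclei it had 154, 112 and 233 UMIs, or 18.3, 24.6 and 45.8 CPM. The log2 ratio was 4.97, 4.74 and 3.40, and, with nuclei thinned to 300 UMIs each to even out depth, a Rsad2 UMI was seen in 13.3%, 15.7% and 11.4% of endothelial-like against 0.480%, 0.760% and 0.972% of brown adipocyte-like nuclei. Without thinning the shares were 23.8%, 26.3% and 13.8% against 3.07%, 2.91% and 2.43%, the latter in the opposite order of the libraries. Cmpk2, a mitochondrial nucleotide kinase gene that lies beside Rsad2 on the opposite strand, had ratios of 3.34, 4.15 and 2.93. Trim30a, a TRIM-family gene of innate immune signalling, was less divided, with 198, 317 and 252 CPM in endothelial-like and 31, 121 and 67.2 CPM in brown adipocyte-like nuclei and log2 ratios of 2.68, 1.39 and 1.91. Rtp4 lay at 2.85, 2.97 and 2.17, Xaf1, an apoptosis-linked gene, at 3.04, 4.44 and 2.11, and Ifi35 at 1.52, 2.18 and 1.0.

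Genes of the IFIT, OAS and ISG15 groups ranged widely in how far they were divided. Ifit1, which binds RNA ends that lack the host's cap methylation, had 78.2, 66.1 and 72 CPM in endothelial-like nuclei and log2 ratios of 4.19, 3.78 and 3.12 over brown adipocyte-like nuclei. Ifit2 and Isg15, both named after their values were seen, had ratios of 5.98, 5.39 and 4.15 and of 5.01, 3.87 and 4.35. Isg15 encodes the ubiquitin-like modifier of the system. Oasl2, a relative of the oligoadenylate synthetases, had ratios of 5.08, 4.92 and 3.33, and Herc6, the main ligase for ISG15 in mice, 3.81, 4.59 and 2.32. In all 5 the ratio was lower in the denervated than in the untreated library. Others of these groups, also named after their values were seen, were less divided: Ifit3 had ratios of 1.9, 2.58 and 1.85, Usp18, which removes ISG15 from proteins, of 3.18, 2.45 and 2.01, and Oas2 of 3.55, 4.0 and 0.76 (-1.05 to 2.30), the last on 5 and 15 UMIs.

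The GTPase families act on membranes of pathogen-containing compartments. Gbp7 had 237, 293 and 95 CPM in endothelial-like nuclei and log2 ratios of 4.23, 3.38 and 3.71 over brown adipocyte-like nuclei, Gbp5 4.90, 5.58 and 3.24 and Gbp2 2.93, 3.16 and 3.35. Of the immunity-related GTPases, Iigp1 had 233, 316 and 193 CPM with ratios of 3.26, 4.74 and 3.27, and Tgtp2 67.7, 78.2 and 24.0 CPM with ratios of 5.46, 4.23 and 5.35. Irgm2, a regulator of the same family, was less divided, at 1.87, 2.24 and 1.61. The very large inducible GTPase genes Gvin1 and Gm4070 had ratios of 6.44, 5.90 and 5.64 and of 6.55, 4.78 and 5.41, beside 5.38, 5.0 and 5.39 for the sum of the endothelial markers. In the untreated library they rest on 15 and 11 UMIs in brown adipocyte-like nuclei, with intervals of 5.71 to 7.29 and 5.70 to 7.56.

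Ratios of the regulators, sensors and PARP genes ranged widely. Stat2 and Irf9, whose products bind the ISRE in 1 complex, had log2 ratios of 1.28, 1.72 and 0.69 and of 1.59, 1.61 and 1.28. Nlrc5, the transactivator of class I antigen-presentation genes, had ratios of -0.33, 1.36 and -0.67, and so was not on the same side in each library. The RNA sensors Ddx58 (RIG-I) and Ifih1 (MDA5) had ratios of 2.02, 2.37 and 1.17 and of 2.85, 3.37 and 1.80. Parp14, an ADP-ribosyltransferase, was at 3.91, 4.23 and 3.12, but Parp9 at 1.24, 1.85 and 0.73 and its partner Dtx3l at 2.31, 2.67 and 1.55. Summed by role, transcription regulators were at 292, 352 and 278 CPM in endothelial-like and 132, 109 and 160 CPM in brown adipocyte-like nuclei, whereas the IFIT genes were at 157, 112 and 136 against 14.1, 8.55 and 17.5 CPM.

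**Figure D2:**
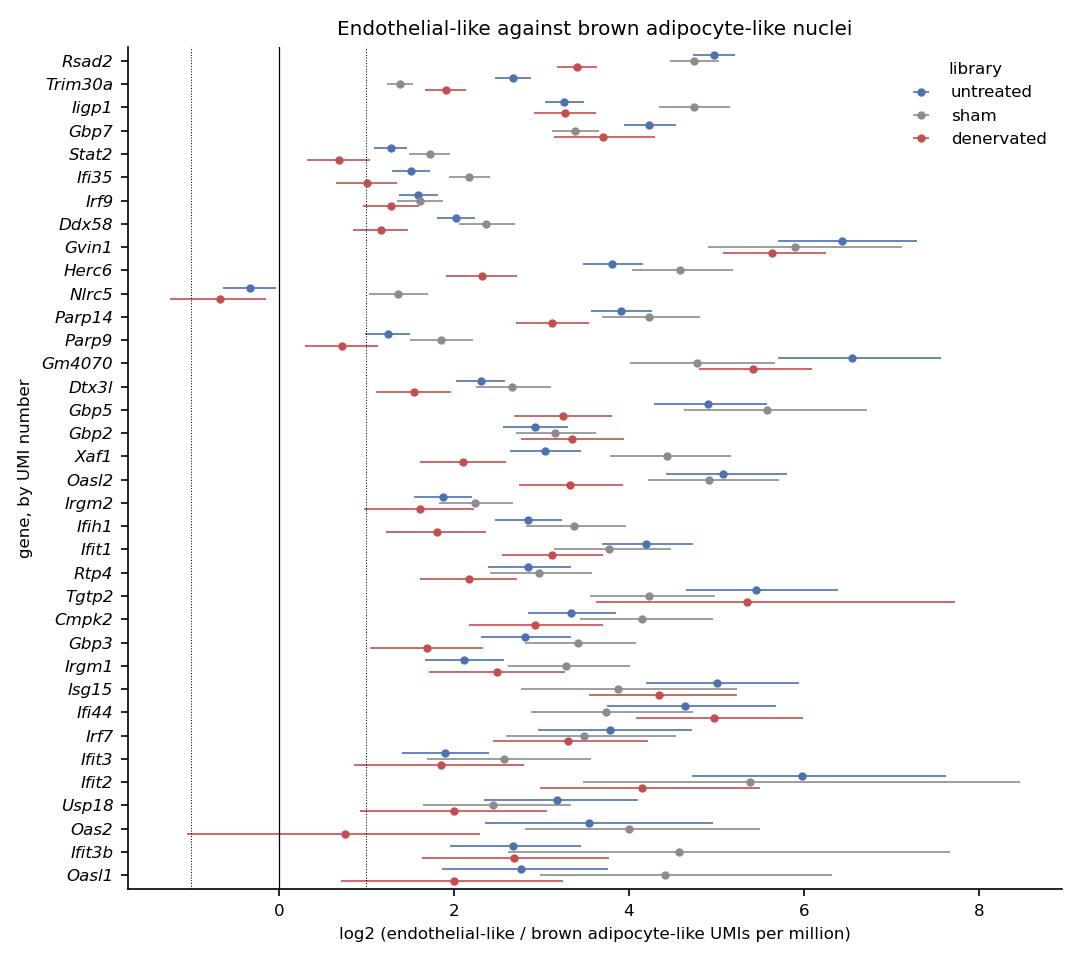
Log2 ratio of endothelial-like to brown adipocyte-like nuclei for 36 members, 1 point per library. Most points lie above a log2 ratio of 1, with the points of Stat2, Parp9 and Nlrc5 near or below it and Gvin1, Gm4070 and Ifit2 above 4.

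Endothelial-like nuclei also varied among themselves. Sub-clusters numbered 8, 7 and 5, and the members' sum ran from 3080 to 4134 CPM in the untreated, 3192 to 4188 in the sham and 2476 to 3602 in the denervated library. The lowest, a denervated sub-cluster at 2476 CPM (2197 to 2781), overlapped the interval of the white adipocyte-like nuclei of that library. Barcodes with fewer than 200 genes, which were not kept as nuclei, numbered 1871, 988 and 5358 and held members at 1468, 1544 and 3156 CPM beside endothelial markers at 6263, 5452 and 11880 CPM. Brown adipocyte-like nuclei held endothelial markers at 381, 395 and 319 CPM beside members at 452, 493 and 651 CPM. With an estimate of free RNA subtracted, brown adipocyte-like nuclei held the members at 386, 411 and 582 CPM. That estimate takes each endothelial marker UMI in adipocyte-like nuclei and each brown adipocyte marker UMI in endothelial-like nuclei as free RNA. It put the free share at 6.08%, 7.24% and 2.68% of UMIs in brown adipocyte-like and 6.70%, 8.23% and 3.36% in white adipocyte-like nuclei. In endothelial-like nuclei it gave 40.5%, 95.6% and 58.1%, while the barcodes of few genes held brown adipocyte markers at 4652, 1765 and 3689 CPM. The endothelial-like shares are taken as uncertain, and what raised them was not tested. No nucleus type here is known to lack the members, so a background share of nuclei could not be read from 1.

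White adipocyte-like nuclei held the members at a higher level than brown adipocyte-like ones in each library: 2.14-fold in untreated (1.84 to 2.47), 1.84-fold in sham (1.72 to 1.97) and 3.37-fold in denervated tissue (3.18 to 3.57). Of 26, 29 and 32 members compared, 12, 11 and 23 were at least 2-fold higher and 0 lower, with 11.4%, 8.6% and 9.57% of all genes at least 2-fold higher and 16.5%, 15.1% and 24.2% lower. In the untreated library, white adipocyte-like nuclei held 197683 UMIs in all, against 8427632 in brown adipocyte-like ones. A member of low UMI number could there pass 2-fold higher on very few UMIs and seldom be called lower. The untreated counts, with the 0 lower, are therefore partly set by this difference in size. Nlrc5 was at 167, 125 and 209 CPM in white adipocyte-like and 41.4, 24.3 and 52.5 CPM in brown adipocyte-like nuclei, a log2 ratio of 2.01, 2.37 and 1.99. Iigp1 had ratios of 1.54, 3.28 and 2.32. Nlrc5 thus set the adipocyte-like types apart in each library. Gvin1 had no ratio in the untreated library, where it fell under 20 UMIs, and ratios of 3.90 and 5.60 in the others.

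Between libraries, endothelial-like nuclei differed little in the members' sum. The log2 ratio was -0.08 (-0.13 to -0.02) for denervated over untreated and -0.27 (-0.32 to -0.21) for denervated over sham, while sham over untreated was 0.19. Both denervated comparisons share the denervated library and are not independent. Of 36 members compared in each, 1 and 4 were at least 2-fold higher in denervated tissue and 2 and 3 lower, against 6.75% and 10.3% of all genes higher and 3.5% and 8.55% lower. These counts lie near the background. Ifi44, an antiviral gene named after its values were seen, had 32.6, 35.1 and 74.0 CPM in the untreated, sham and denervated library, with log2 ratios of 1.18 and 1.08. Gbp7 was lower, with ratios of -1.32 (-1.64 to -1.01) and -1.63 (-1.94 to -1.32), and so was Tgtp2, at -1.5 and -1.70. Gvin1 was at 155, 105 and 274 CPM and Gm4070 at 122, 84.5 and 201, at least 2-fold higher over sham (1.39 and 1.25) but not over untreated (0.83 and 0.71). Isg15 was at 49.6, 22.5 and 64.0 CPM, so its ratio of 1.51 over sham went with a sham level below the untreated one. The GBP sum of 426, 540 and 286 CPM was lowest in the denervated library, where Gbp7 was at 95 CPM against 237 and 293, while Gbp2 was at 71.2, 93.8 and 75.99 CPM and Gbp5 at 81.7, 94.1 and 79.99. The very large GTPases summed to 277, 189 and 475 CPM.

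Brown adipocyte-like nuclei held the members at a log2 ratio of 0.53 (0.46 to 0.60) for denervated over untreated and 0.40 (0.32 to 0.48) over sham. Of 35 and 34 members compared, 14 and 13 were at least 2-fold higher and 0 and 2 lower, with 8.03% and 16.1% of all genes higher and 2% and 8.92% lower. The members' median was 0.75 and 0.82, beside 0.04 and 0.09 over all genes. Rsad2 had 18.3, 24.6 and 45.8 CPM and ratios of 1.33 and 0.90. Oasl2 had ratios of 1.65 and 1.0, Herc6 of 1.06 and 1.76 and Gbp5 of 1.63 and 2.10, the latter on 23, 9 and 43 UMIs. These 4 genes were higher in the denervated library than in either other one, though not by 2-fold in each comparison. Of the regulators, Stat2 was at -0.01 and 0.23 and Irf9 at 0.54 and 0.45. Trim30a was 1.12 over untreated and -0.85 over sham, since the sham level was itself 1.97 over untreated, and Gbp7 was at -0.79 and -1.95.

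White adipocyte-like nuclei had the largest difference between libraries among the endothelial-, brown adipocyte- and white adipocyte-like types, which was noticed after the values were seen. The type itself was not alike, at 1.30%, 9.26% and 10.1% of kept nuclei (untreated, sham, denervated). Of 6 white-only adipocyte markers, 5 were raised in untreated, 5 and 6 in the sham sub-clusters and 4 in denervated nuclei. Leading genes of the cluster with white adipocyte markers included Slc7a10, Thbs1 and Mt2 in untreated and Ptx3, Saa2, Slc7a10 and Cxcl1 in denervated tissue. Whether the difference lay within the same kind of nuclei was not tested. The members' log2 ratio was 1.18 (0.97 to 1.41) for denervated over untreated and 1.27 (1.17 to 1.38) over sham, and sham over untreated was -0.09 (-0.31 to 0.14). Of 21 and 25 members compared, 10 and 13 were at least 2-fold higher and 0 lower. Of all genes compared, 12.1% and 10.6% were higher and 7.02% and 14.4% lower. The least number of UMIs was set on both libraries together, and these nuclei held 191 member UMIs in untreated against 1858 in denervated tissue. A member lower in denervated nuclei could thus seldom enter the comparison with untreated, so the 0 lower there is partly set by this filter. Gvin1 and Gm4070 share most of their sequence but count as separate members. The members' median was 0.87 and 1.25, beside -0.01 and -0.08 over all genes. With no doublets removed, the ratio of the sums over sham was 0.84, under 2-fold.

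The very large GTPase genes carried much of it. Gvin1 had 3, 37 and 226 UMIs in untreated, sham and denervated white adipocyte-like nuclei, or 15.2, 26.2 and 267 CPM. Its log2 ratio was 4.14 (2.57 to 6.42) over untreated and 3.35 (2.84 to 3.89) over sham. Gm4070 had 5, 44 and 246 UMIs, with ratios of 3.52 and 3.22. The denervated library thus stood apart and the other two lay close together. Without both genes the members' ratio was 0.82 (0.60 to 1.05) and 0.94 (0.83 to 1.06), so the sum stayed higher but by less than 2-fold. With nuclei thinned to 300 UMIs each, Gvin1 was seen in 0 of 140 untreated, 0.989% of sham and 8.35% of denervated white adipocyte-like nuclei, and in 0.203% of denervated brown adipocyte-like nuclei. Without thinning the shares were 2.14%, 3.05% and 16.1%.

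Gbp5 had 5, 5 and 134 UMIs, or 25.3, 3.54 and 158 CPM, with log2 ratios of 2.65 and 5.48, and was seen in 7.24% of denervated white adipocyte-like nuclei (71 of 981). Thinned to 300 UMIs, its share was 1.43%, 0.0899% and 4.54%. Herc6 had 25.3, 24.1 and 104 CPM and ratios of 2.04 and 2.11, and Rtp4 2.22 and 2.06. Rsad2 had 25.3, 34.0 and 115 CPM and ratios of 2.18 and 1.75, with a thinned share of nuclei of 0.714% (1 nucleus), 1.26% and 1.55%, whose intervals overlap, and an unthinned share of 2.14%, 3.41% and 2.75%. Parp14 had 0, 16 and 31 UMIs, a ratio of 1.27 over untreated, with 3 UMIs set in place of 0, and of 1.69 over sham. Ifih1 was at 1.60 and 1.27. Other members differed less: Trim30a was at 0.87 and 0.03, Iigp1 at 0.50 and -0.19, Nlrc5 at 0.32 and 0.74, Stat2 at -0.10 and 0.78 and Gbp7 at -0.03 and -0.98.

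The sham and the untreated library were compared in the same way. Of 37 members compared in endothelial-like nuclei, 1 was at least 2-fold higher in sham and 2 lower, with 6.15% and 3.6% of all genes. Of 33 in brown adipocyte-like nuclei, 5 were higher and 3 lower, with 8.81% and 10.4% of all genes, and of 19 in white adipocyte-like nuclei 2 and 2, with 14.4% and 9.09%. The endothelial-like and white adipocyte-like counts lie near the background. In mural-like nuclei the members' log2 ratio was 0.37 for denervated over untreated, -0.07 for denervated over sham and 0.43 for sham over untreated. Of 12, 22 and 19 members compared there, 2, 2 and 3 were higher, with 6.77%, 7.88% and 7.23% of all genes, and 0, 3 and 0 lower, with 7.5%, 13.7% and 3.7%. In immune-like nuclei the ratios were 0.50, -0.64 and 1.14. Few members could be compared there (9, 12 and 3), of which 3, 2 and 3 were higher, with 14.7%, 24% and 16.5% of all genes, and 0, 3 and 0 lower, with 7.86%, 12.5% and 15.5%.

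Markers of other types were checked in the white adipocyte-like nuclei. Endothelial markers were at 420, 449 and 399 CPM in the untreated, sham and denervated library, 12 immune markers at 111, 147 and 157 CPM with 4, 1 and 0 of them at 0, white-only adipocyte markers at 2307, 1791 and 1957 and brown-only markers at 2069, 2356 and 1770. The members' sum was higher in denervated nuclei and the endothelial marker sum was not. However, nuclei with both endothelial and adipocyte markers had been left out as doublets or set apart as a mixed group. The endothelial marker sum here was therefore partly set by that selection. The part of endothelial or immune RNA in the result was not tested. The untreated value rests on 140 nuclei.

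**Figure D3:**
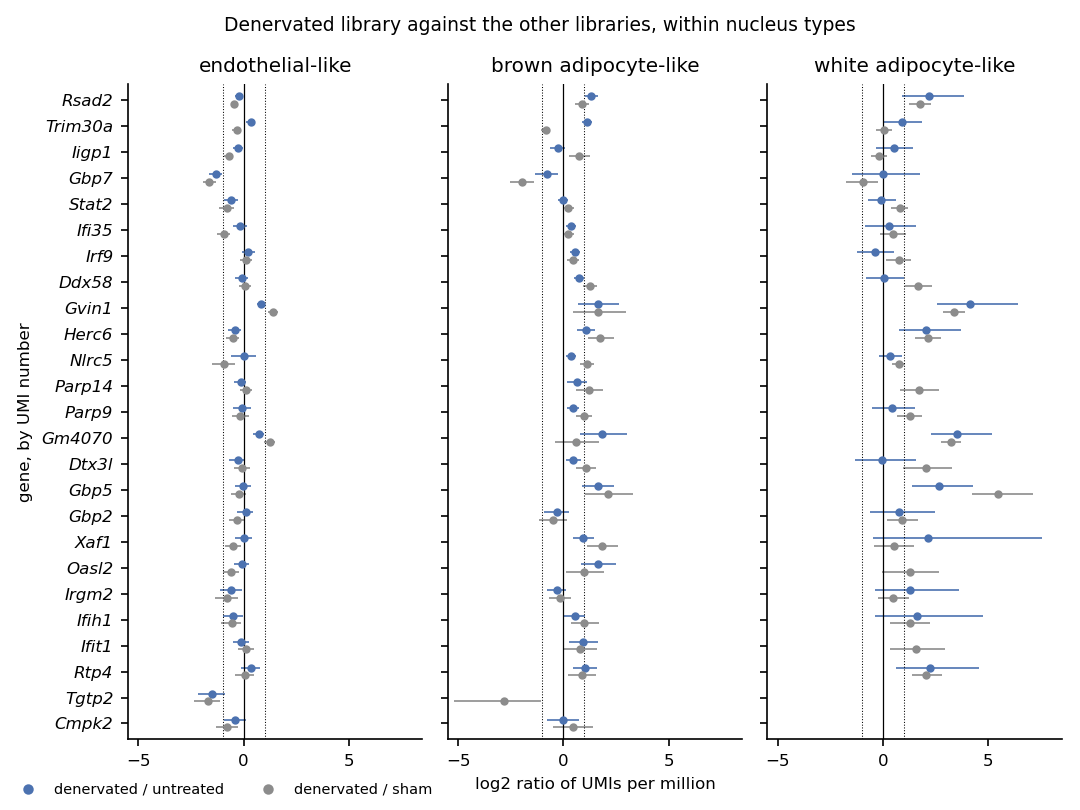
Log2 ratio of the denervated to the untreated and to the sham library for members with 20 or more UMIs and a UMI in both libraries, in endothelial-, brown adipocyte- and white adipocyte-like nuclei, with dotted lines at a 2-fold difference. Gvin1, Gm4070 and Gbp5 lie past the upper line in white adipocyte-like nuclei in both comparisons, and Gbp7 and Tgtp2 past the lower line in endothelial-like nuclei.

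How many members a nucleus held differed between the types. With every nucleus thinned to 300 UMIs, 53.1%, 60.9% and 51.7% of endothelial-like nuclei held at least 1 member (untreated, sham, denervated), and 21.4%, 26.9% and 20.4% held 2 or more. Brown adipocyte-like nuclei held at least 1 in 11.4%, 13.6% and 15.6% and white adipocyte-like nuclei in 25.7%, 21.6% and 39.2%. Thinning left out 466, 495 and 731 shallower endothelial-like nuclei, and without it the endothelial-like shares were 73.0%, 76.8% and 59.0%, the brown adipocyte-like 48.3%, 45.0% and 39.1% and the white adipocyte-like 66.4%, 54.6% and 64.2%. The unthinned brown adipocyte-like order is the reverse of the order of levels and follows depth, with medians of 1827, 1420 and 906 UMIs, so the thinned values are used.

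A small number of nuclei held many members. The following counts are not thinned, and deeper nuclei can show more members: the median depth of endothelial-like nuclei was 665, 521.5 and 356.5 UMIs. In endothelial-like nuclei, 492 (9.25%), 553 (9.49%) and 85 (3.75%) had UMIs of 5 or more members and held 37.7%, 32.4% and 22.3% of the member UMIs. In brown adipocyte-like nuclei there were 21, 6 and 28 such nuclei, with 9.38%, 3.11% and 13.8%. In white adipocyte-like nuclei there were 2, 10 and 40, with 5.76%, 6.17% and 28.8%. Leaving these out, white adipocyte-like levels were 924, 861 and 1646 CPM, with log2 ratios of 0.83 and 0.93 for denervated over untreated and over sham, so the denervated level stayed the highest of the 3 but by less than 2-fold. The most members in 1 nucleus were 22 in a brown adipocyte-like nucleus of the denervated library, with 70 member UMIs.

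**Figure D4:**
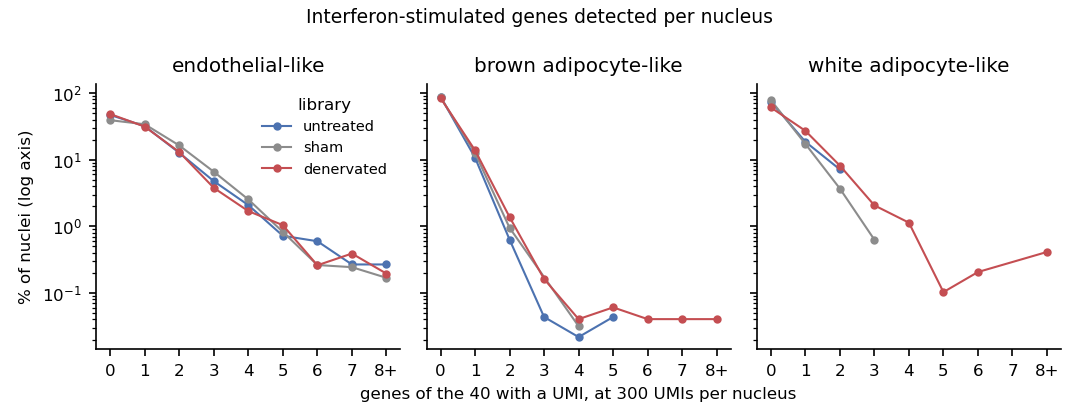
Percent of nuclei (log axis) by the number of members with a UMI after thinning to 300 UMIs, where 8+ means 8 or more and values of 0 are not drawn. In the untreated library 4 members were held by 2.08% of endothelial-like nuclei, against 0.0218% in the brown adipocyte-like type.

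Co-detection was described with an index of 10 members of the IFIT, OAS and ISG15 groups, Rsad2 and Irf7: Ifit1, Ifit2, Ifit3, Ifit3b, Isg15, Oasl1, Oasl2, Rsad2, Usp18 and Irf7. Ifit3 and Ifit3b share much of their sequence, so UMIs from either gene could be counted under both. The part of this in the index shares and counts below was not tested. In thinned endothelial-like nuclei with Ifit1, another index gene was seen in 65.9% (56 of 85 nuclei, untreated), 46.0% (sham) and 43.3% (denervated), against 17.3%, 20.6% and 14.8% of those without it. Ifit1 in the untreated library had the highest such share of the index genes. Over the 9, 9 and 4 index genes compared there, the median share was 44.8%, 30.2% and 36.2% with the gene and 17.98%, 21.4% and 14.97% without it, and over 25, 26 and 19 other members 28.2%, 29.4% and 24.7% against 18.5%, 21.7% and 16.1%. In brown adipocyte-like nuclei, over 7, 8 and 13 other members, it was 2.27%, 2.77% and 5.88% against 1.08%, 1.28% and 1.63%. The same was not computed for genes outside the list, so these shares are a description. Cmpk2, no index gene, was accompanied by one in 38.7%, 37.2% and 75.0% (9 of 12 nuclei), against 18.5%, 21.6% and 16.0%. Xaf1 was not accompanied more often in sham: 26.9%, 21.9% and 21.2% against 18.5%, 21.9% and 16.4%. Gvin1 and Gm4070 were seen together in 24.6%, 26.1% and 47.3% of nuclei with Gvin1 and 2.58%, 1.75% and 2.87% of those without, which their shared sequence can also produce.

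Endothelial-like nuclei with 2 or more index members numbered 369, 367 and 99 (6.93%, 6.30% and 4.37%). The other 30 members, which played no part in that choice, were at 5983 CPM in these nuclei and 2078 in nuclei with no index member in the untreated library, 4351 and 2630 in sham and 5119 and 2134 in denervated tissue. The log2 ratio was 1.53 (1.45 to 1.60), 0.73 (0.64 to 0.81) and 1.26 (1.09 to 1.43). Of 26, 26 and 25 members compared, 24, 7 and 14 were at least 2-fold higher, with 2.72%, 2.22% and 7.95% of all genes higher, and 0 members but 7.31%, 6.72% and 13.6% of all genes lower. Ifi44 had log2 ratios of 3.08, 2.85 and 2.33, Cmpk2 of 2.63, 1.37 and 3.36, Tgtp2 of 2.01, 1.43 and 3.66 and Rtp4 of 2.44, 1.03 and 2.05. Ifi35, at 0.65, 0.12 and 0.84, and Trim30a, at 1.03, 0.71 and 0.98, differed less. Depth moved with the split: the median was 832, 703 and 489 UMIs against 589, 478 and 344. Among nuclei of 600 or more UMIs the log2 ratio was 1.52, 0.62 and 0.83, so the denervated value was then under 2-fold.

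In brown adipocyte-like nuclei 12, 11 and 23 nuclei had 2 or more index members. The other members were at 2496, 2076 and 6675 CPM in them and at 387, 439 and 514 CPM in nuclei with none, a log2 ratio of 2.69 (2.34 to 3.02), 2.24 (1.80 to 2.66) and 3.70 (3.48 to 3.91). Of 21, 18 and 23 members compared, 16, 14 and 23 were at least 2-fold higher, with 14.5%, 16.3% and 16.9% of all genes, and 4.01%, 4.14% and 4.31% of all genes were lower, but nothing is read from these counts, since 1 UMI in so few nuclei can pass 2-fold, as it did for Gbp5 in the untreated library. Iigp1 had 11, 8 and 30 UMIs in these few nuclei and 110, 44 and 51 in those with none. Endothelial markers were at 525, 734 and 284 CPM in the split nuclei and at 381, 391 and 315 CPM in the others, the denervated value on 8 UMIs, and the part of endothelial RNA in the result was not tested. The median depth of the split nuclei was 2310, 1843 and 1053 UMIs, against 1813.5, 1410 and 899 in the others, and its part was not tested. These values rest on few nuclei, and the intervals do not cover the spread between them.

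**Figure D5:**
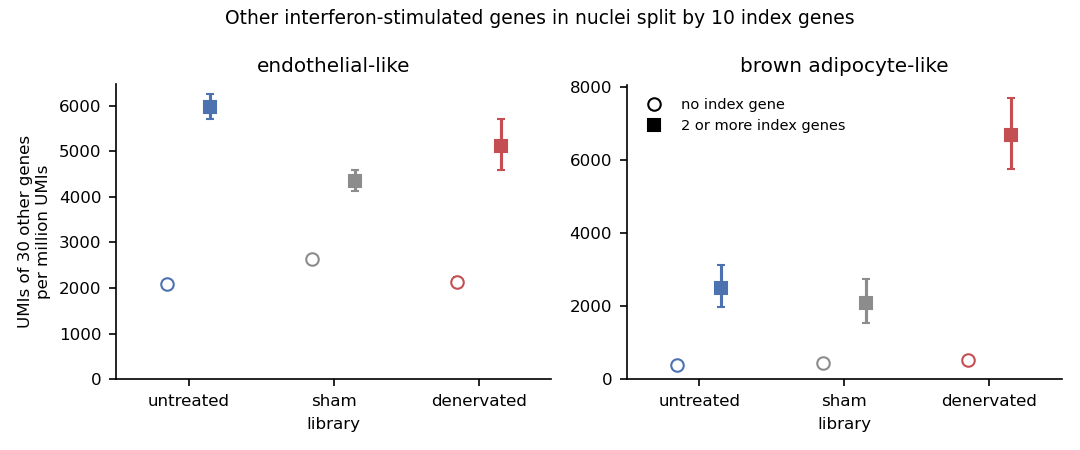
Summed level of the 30 other members (CPM) in nuclei with no index member (open circles) and with 2 or more (squares), in endothelial-like and brown adipocyte-like nuclei of each library. Squares lie above circles in each pair, at 4351 to 5983 against 2078 to 2630 in endothelial-like nuclei.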

How the data were processed

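Nuclear RNA of BAT was captured with BD Rhapsody, and the deposited tables are raw UMI counts per nucleus made by the authors. The headers of the untreated and the denervated table name pipeline version 1.9-nuclei and a GRCm38 annotation; the sham table has no header. The submitters' notes name Seurat 4.0.6 and, against those headers, the build GRCh38. Barcodes under 200 genes or over 50% mitochondrial UMIs were left out, as were 999, 1981 and 768 likely doublets (untreated, sham, denervated), called where 2 marker lists of different cell types each had 3 UMIs and the smaller sum reached 25% of the larger. Mitochondrial UMIs were 6.71%, 12.9% and 2.95% of the total. Each library was clustered on 2000 variable genes, 30 principal components and 20 neighbours (Louvain resolution 0.5; 1 for sub-clusters), leaving out the members. UMIs were then summed per type and library. A difference was called at 2-fold among genes with 20 or more UMIs. With 0 UMIs in 1 group, a floor of 3 UMIs took the place of 0, and the ratio so made is not the limit of an interval. With 1 library per condition there is no test. Steps were tested on simulated data. The members, lists and comparisons were chosen with earlier results of these data known. Members named in the text are the 25 with the most UMIs; others are said to be named after their values were seen, and so were Ifit3, Ifit3b, Tgtp1, Oasl1, Usp18, Irf7 and Oas2. Software was igraph for Python 0.11.9, scikit-learn 1.9.0, matplotlib 3.10.9, scipy 1.17.1, numpy 2.4.6 and pandas 2.3.3 under Python 3.11.15. Alternatives in thinning, filters, doublet removal, free RNA and member set are given in the closing section.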

Additional observations from a re-analysis of the deposited data

Results flagged for a closer look

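Differences between libraries were not the same in the nucleus types. None of the following differences between types was tested. Each is a log2 ratio in an adipocyte-like type minus that in endothelial-like nuclei, where the intervals of the types lay on opposite sides of 0. For the members' sum, denervated over untreated, it was 0.61 in brown adipocyte-like and 1.26 in white adipocyte-like nuclei, and denervated over sham 0.67 and 1.54. Without nuclei holding 5 or more members, the denervated over untreated ratios were 0.15 in endothelial-like, 0.46 in brown adipocyte-like and 0.83 in white adipocyte-like nuclei, all above 0. Denervated and sham levels were then 2696 and 3127 CPM in endothelial-like, 566 and 479 in brown adipocyte-like and 1646 and 861 in white adipocyte-like nuclei. This cut uses the members' own unthinned counts and moves with depth. It left out 9.25% of untreated but 3.75% of denervated endothelial-like nuclei, so nothing is read from the move. For Rsad2 it was 1.57 and 2.42 over untreated and 1.34 and 2.19 over sham. For Herc6 it was 1.49 and 2.46 over untreated and 2.27 and 2.62 over sham. For Ifih1 in brown adipocyte-like nuclei it was 1.05 over untreated and 1.57 over sham. All of them compare the denervated library, which had fewer endothelial-like nuclei (2268) and more barcodes of fewer than 200 genes (5358) than the others, and the part of either was not tested.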

How the results depend on the processing

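No paired analysis was possible because each condition has 1 library. No value with a called direction changed sign, and leaving out barcodes shared between libraries moved none of the sums and ratios beyond its counting interval. Values that moved beyond it follow, in the order untreated, sham, denervated where 3 are given. EC, BA and WA stand for endothelial-, brown adipocyte- and white adipocyte-like nuclei, and the cause of each move was not tested unless the setting itself gives it.

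Free RNA subtraction, whose estimate in EC is taken as uncertain for a reason that was not tested, gave EC sums of 4757, 55582 and 3370 CPM. It gave BA sums of 386, 411 and 582, a sham WA sum of 851 and EC over BA log2 ratios of 3.62, 7.08 and 2.53. With it, a BA denervated over sham ratio was 0.50. EC ratios with it were -0.50 (denervated over untreated), -4.04 (denervated over sham) and 3.55 (sham over untreated). Without Rsad2, the member with most UMIs, sums were 2851, 3250 and 2761 in EC, 433.5, 468 and 605.5 in BA and 2080 in denervated WA, and EC over BA was 2.72, 2.795 and 2.19. Without Gvin1 and Gm4070, an alternative added after seeing the data, sums were 3148, 3718 and 2771 in EC and 851 (sham) and 1637 (denervated) in WA, EC over BA was 2.81 in untreated and 2.11 in denervated, EC ratios were -0.18, -0.42 and 0.24, and the WA ratios were 0.82 over untreated and 0.94 over sham. Without nuclei holding 5 or more members, sums were 2432, 3127 and 2696 in EC, 412 and 566 in untreated and denervated BA and 1646 in denervated WA, and EC over BA was 2.56 and 2.71 in untreated and sham. In the same setting EC denervated over untreated was 0.15, a change of sign of a value that was not called, EC sham over untreated 0.36, the BA ratios 0.46 (denervated over untreated), 0.24 (denervated over sham) and 0.22 (sham over untreated), and the WA ratios 0.83 over untreated and 0.93 over sham. In the last 2 settings, WA ratios dropped below 2-fold.

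With 500 or more genes per nucleus, EC sums were 3776 in sham and 2695 in denervated, EC over BA was 2.04 in denervated, EC ratios were -0.33 over untreated and -0.49 over sham, and the shares with a member were 64.0% of sham EC and 24.2% of sham WA. With at most 10% mitochondrial UMIs, EC sums were 3630, 4178 and 3372 and EC over BA was 2.99 and 3.09 in untreated and sham. With members kept in clustering, sums were 701 in denervated BA and 1917 in denervated WA, EC over BA was 2.21 in denervated, BA ratios were 0.64 over untreated and 0.52 over sham, and WA over sham was 1.04. With no doublets removed, sums were 3334 and 3668 in untreated and sham EC, 547 in sham BA and 1229 in sham WA, EC over BA was 2.745 in sham, EC ratios were -0.20 (denervated over sham) and 0.14 (sham over untreated), BA ratios both 0.27, WA ratios 0.84 (denervated over sham) and 0.24 (sham over untreated), the sham WA share 26.3% and the sham EC index ratio 0.62.

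Shares of nuclei with a member and co-detection depend on depth. Without thinning, shares were 73.0%, 76.8% and 59.0% in EC, 48.3%, 45.0% and 39.1% in BA and 66.4%, 54.6% and 64.2% in WA, and the percent of nuclei with a member that held 2 or more was 60.5, 64.4 and 49.96 in EC and 31.6, 28.2 and 28.0 in BA. Thinned to 600 UMIs, shares were 74.6%, 82.3% and 70.7% in EC, 22.0%, 24.5% and 27.1% in BA and 40%, 37.1% and 56.0% in WA, and co-detection was 57.5, 65.6 and 53.1 in EC and 12.5, 13.1 and 17.4 in BA. With 1 or more index members, the other members' log2 ratio was 0.64, 0.36 and 0.63 in EC and 0.85, 0.43 and 1.45 in BA, and with 3 or more 1.98, 1.08 and 1.69 in EC and 4.07, 4.40 and 4.87 in BA. In EC of 600 or more UMIs it was 0.62 in sham and 0.83 in denervated. With 1 mismatch allowed, 93.3% of members held an ISRE core and 86.7% a GAS core, beside 38.9% and 74.2% of all genes.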

Other observations

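Genes beside the members were read from fixed lists, and those named are among the 5 with most UMIs in their list unless said otherwise. Class I antigen-presentation genes were higher in endothelial-like nuclei, with 10, 9 and 10 of 11 genes at least 2-fold above brown adipocyte-like nuclei in the untreated, sham and denervated library. H2-D1, a class I heavy chain, had log2 ratios of 2.75, 2.62 and 2.61 and B2m, its light chain, of 2.82, 2.32 and 2.43. Over all genes the shares at least 2-fold higher were 18.9%, 21.4% and 18.6%. Of interferon receptors and their kinases, 3 of 9, 3 of 9 and 3 of 8 were at least 2-fold higher. Of interferon-stimulated genes outside the member list, 18 of 24, 20 of 23 and 16 of 23 were at least 2-fold higher. Slfn5, of the Schlafen family, had ratios of 5.93, 4.73 and 5.66, and Sp100, a nuclear body gene, of 5.23, 5.58 and 4.78. Ifi27 was the other way, at -2.49, -3.28 and -2.16, as was Mavs, the mitochondrial adaptor of the RNA sensors, at -2.59, -2.33 and -2.45. Of 10 interferon ligands listed, 1, 0 and 1 had a column in the untreated, sham and denervated table, with at most 1 UMI, and the others were not analysed here.

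In white adipocyte-like nuclei Irf1, a transcription factor of the interferon response, had 78, 498 and 1466 UMIs, or 395, 353 and 1731 CPM, with log2 ratios of 2.13 and 2.29 for denervated over untreated and over sham. Ifnar2, a type I receptor subunit, had 11, 122 and 172 UMIs and ratios of 1.87 and 1.23. H2-K1, a class I heavy chain, was at 0.83 and 0.58. Named after their values were seen, Ifi207 was at 40.5, 2.84 and 107 CPM (8, 4 and 91 UMIs), Ifi204 at 0, 2.13 and 59.0 CPM (0, 3 and 50 UMIs) and Cxcl10, a chemokine, at 50.6, 94.99 and 255 CPM. Their log2 ratios over untreated were 1.41 (0.37 to 2.66), 1.96 and 2.33 (1.43 to 3.41), that of Ifi204 with 3 UMIs set in place of 0. In endothelial-like nuclei split by the index members, receptors and kinases had median log2 ratios of 0.06, -0.14 and 0.15, whereas the other interferon-stimulated genes had 1.02, 0.53 and 0.93.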
